A study of Mus musculus with 13 samples.

Results

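Slc17a7, Tshz2 and Rprm are 3 genes used as markers of excitatory neurons of the cerebral cortex. They were chosen by gene symbol from the deposited table of named probe sets, and every probe set that table gives them was taken: 1 for Slc17a7 (1428986_at), 1 for Rprm (1422552_at) and 2 for Tshz2 (1435385_at and 1428026_at). These 4 probe sets are 4 of the 4423 in that table and of the 45101 in the full value table. They were read as a gauge of cortical tissue in dissections of the striatum, across the genotype labels and among mice of the same label.

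The study measured gene expression in the striatum of male, naïve C57Bl/6J mice with a knockout of Ptpn5, the gene of STEP, a tyrosine phosphatase enriched in striatal neurons. There were 4 homozygous knockout mice (STEP -/-), 5 heterozygous knockout mice (STEP +/-) and 4 wild-type littermates, with 1 Affymetrix array of total RNA for each mouse. The labels name no tissue-specific driver, and they leave out the age of the mice, the type of knockout allele and the borders of the dissection. The study set each knockout genotype against wild type. Arrays carry no read depth, so their number limits the precision.

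Slc17a7 encodes VGLUT1, the transporter that loads glutamate into synaptic vesicles. It is made by most excitatory neurons of the cortex, whose axons reach the striatum, while the medium spiny neurons of the striatum release GABA and do not use it. The transcript lies mainly in the cell body, so cortical axon endings in the striatum bring the protein with little of the mRNA. Tshz2 encodes a teashirt zinc finger transcription factor and marks a class of deep-layer cortical neurons that project within the cortex. Rprm encodes reprimo, described in cultured cells as a mediator of cell cycle arrest downstream of p53, and in the mouse cortex its mRNA marks layer 6 neurons that project to the thalamus.

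The 250 bases before each annotated start are shown because they hold the proximal promoter of the 3 genes whose levels are compared here. They come from RefSeq on GRCm38.p6, at chr7:45163671-45163920 on the plus strand for Slc17a7, chr2:54085553-54085802 on the minus strand for Rprm and chr2:169632259-169632508 on the plus strand for Tshz2. Each is written 5′ to 3′ along its gene, and capitals mark matches on either strand to CANNTG, the E-box core bound by bHLH factors, and to GGGCGG, the GC box bound by Sp-family factors.
Slc17a7: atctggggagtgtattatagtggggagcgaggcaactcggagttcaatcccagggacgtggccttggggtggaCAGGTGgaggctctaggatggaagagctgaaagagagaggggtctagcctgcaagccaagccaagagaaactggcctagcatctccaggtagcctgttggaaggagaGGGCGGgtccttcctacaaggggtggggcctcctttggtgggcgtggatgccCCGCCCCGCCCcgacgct
Rprm: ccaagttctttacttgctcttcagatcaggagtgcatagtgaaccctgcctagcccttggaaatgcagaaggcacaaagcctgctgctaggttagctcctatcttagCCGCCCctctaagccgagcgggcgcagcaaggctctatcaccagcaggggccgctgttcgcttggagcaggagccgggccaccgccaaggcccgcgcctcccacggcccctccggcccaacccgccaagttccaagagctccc
Tshz2: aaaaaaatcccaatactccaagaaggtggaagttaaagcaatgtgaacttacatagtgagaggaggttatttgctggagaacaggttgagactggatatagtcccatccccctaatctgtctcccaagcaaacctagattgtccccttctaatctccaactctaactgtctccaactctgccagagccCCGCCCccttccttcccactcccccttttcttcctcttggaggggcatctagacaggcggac
The Slc17a7 window held 1 CANNTG match and 3 GGGCGG matches, of which 2 overlap. The Rprm and Tshz2 windows each held 1 GGGCGG match and no CANNTG match. Of 32817 windows of this length, 66.2% held CANNTG and 32.7% held GGGCGG. A form of the E-box preferred by proneural factors, CAGATG, and AGGTGT, a core T-box site, were in none of the 3 windows, and in 14.5% and 11.8% of all windows. The Slc17a7 and Rprm windows had 61.2% and 62.4% G and C, the Tshz2 window had 48.8%, and the median window had 52.4%. These letters only describe the windows.

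Column headings had to be settled before the groups were compared. The full value table names its columns by sample record, whereas the table with gene names has headings of its own. In all 4423 shared probe sets, the columns headed HOM1 to HOM4 held the values of the sample records of wild type 1 to 4 and the columns headed WT1 to WT4 held those of homozygous 1 to 4, within 0.51 intensity units. The heterozygous headings matched their records. Groups here follow the sample records, and under the other headings every homozygous against wild type difference would change its sign.

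The targeted gene followed the sample records. Ptpn5 (1425130_a_at) had an intensity of 486 ± 105 in homozygous arrays, 1028 ± 231 in heterozygous arrays and 1649 ± 217 in wild-type arrays (SD, n = 4, 5 and 4), and the 3 groups did not overlap. It fell by 1.75 log2 in homozygous against wild-type arrays (limma, adjusted p = 4.47e-06). In heterozygous arrays it was lower by a log2 difference of -0.69, which did not pass (limma, adjusted p = 0.287). The brighter Ptpn5 probe set, 1423544_at, differed by -1.49 in homozygous and -0.51 in heterozygous against wild-type arrays (limma, adjusted p = 5.24e-06 and 0.287).

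Differences are in log2(intensity + 16), fitted with limma to all 45101 probe sets and adjusted over all of them by Benjamini-Hochberg, with a threshold of 0.05. The added 16 understates differences of dim probe sets. The median difference of all probe sets was 0.09 for homozygous against wild type, 0.12 for heterozygous against wild type and -0.03 for homozygous against heterozygous arrays, and the members are to be read beside these shifts. The labels list each array as its own mouse sample, and they do not say which mice shared a litter, a cage or a dissection day.

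Slc17a7 varied more between mice than almost any other probe set. Its intensity was 1011, 300, 218 and 885 in homozygous arrays 1 to 4. In heterozygous arrays 1 to 5 it was 1697, 1238, 1186, 742 and 2083. Wild-type arrays 1 to 4 had 199, 803, 432 and 722. The 5 highest values stood in 4 of the heterozygous arrays and in homozygous 1, and the lowest in wild type 1, homozygous 3 and homozygous 2. The highest array, heterozygous 5, had 10.5 times the intensity of the lowest, wild type 1. Within the homozygous group alone the values spanned 4.63-fold, against 4.03-fold within wild type.

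The mean intensity of Slc17a7 was 604 ± 402 in homozygous, 1389 ± 515 in heterozygous and 539 ± 277 in wild-type arrays (SD, n = 4, 5 and 4). Heterozygous arrays exceeded wild type by 1.43 ± 0.38 log2 (SE), or 2.70-fold, with a 95% interval of 0.65 to 2.21 and limma adjusted p = 0.287. In 4 of 5 heterozygous arrays the value lay above all 4 wild-type arrays, the exception being heterozygous 4. Homozygous arrays were 0.06 ± 0.40 log2 above wild type (adjusted p = 0.977), an interval of -0.76 to 0.88 that reaches far to both sides. That sign turned to -0.06 after quantile normalization and to -0.03 after centring each array on its median, and it turned without wild type 1, homozygous 1 or homozygous 4 (-0.34, -0.28 and -0.21). With array weights, which counted homozygous 3 most, it was -0.99 and passed (limma, adjusted p = 0.0368), as did 8390 of the 45101 probe sets. Against heterozygous arrays, homozygous arrays differed by -1.37 ± 0.38 log2 (adjusted p = 0.858), and 2 of 4 lay below all heterozygous arrays. None of these 3 differences passed with all arrays weighted alike. With array weights the homozygous against heterozygous difference was -2.26 and passed (limma, adjusted p = 0.000469), as did 5698 of the 45101 probe sets. In bulk tissue, more or fewer cells of a type and more or less RNA per cell cannot be told apart.

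Rprm had the clearest separation by genotype label of the 4 probe sets. Homozygous arrays 1 to 4 had intensities of 886, 939, 441 and 1211. Heterozygous arrays 1 to 5 had 1694, 1825, 1440, 1134 and 1920, and wild-type arrays 1 to 4 had 321, 958, 576 and 857. All 5 heterozygous arrays lay above all 4 wild-type arrays, and homozygous 4 alone among the homozygous arrays reached the heterozygous range. Such a separation, heterozygous above wild type, occurred in 6.54% of all probe sets. Rprm was listed in the deposited table for this same comparison, and the share among listed probe sets was not counted.

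For Rprm the mean intensity was 869 ± 319 in homozygous, 1603 ± 318 in heterozygous and 678 ± 288 in wild-type arrays (SD, n = 4, 5 and 4). The heterozygous against wild type difference was 1.31 ± 0.25 log2 (SE), or 2.48-fold, with an interval of 0.78 to 1.84. It stood at place 7 of 45101 by p and did not pass (limma, adjusted p = 0.191). It passed in a fit without heterozygous 4 (1.43, adjusted p = 0.0333) and in one without homozygous 3, which leaves the difference at 1.31 and changes only the pooled spread (adjusted p = 0.0281). In these fits 213 and 5 of the 45101 probe sets passed in this comparison, against 1 with all arrays. The homozygous against wild type difference was 0.38 ± 0.27 (adjusted p = 0.909). It was 0.07 without wild type 1, 0.19 without homozygous 4, 0.58 without wild type 2 and 0.67 without homozygous 3, and array weights turned it to -0.41. Homozygous against heterozygous arrays differed by -0.93 ± 0.25 (adjusted p = 0.858), with 3 of 4 homozygous arrays below all heterozygous ones. With array weights they differed by -1.73 (limma, adjusted p = 0.000449), in a fit where 5698 of the 45101 probe sets passed. Both comparisons against wild type share the same 4 wild-type arrays, of which wild type 1 was the lowest of all 13 arrays for Rprm and for Slc17a7.

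Tshz2 had another order. The brighter probe set, 1435385_at, read 143, 250, 135 and 351 in homozygous arrays 1 to 4. Heterozygous arrays 1 to 5 read 172, 105, 256, 113 and 188, and wild-type arrays 1 to 4 read 100, 95, 183 and 65. Homozygous 4 was highest and wild type 4 lowest of the 13, and all 3 groups overlapped. Homozygous 4 and homozygous 2, the highest and the third highest for Tshz2, stood at places 8 and 3 from the bottom for Slc17a7.

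The mean of Tshz2 at 1435385_at was 220 ± 102 in homozygous, 167 ± 61.4 in heterozygous and 111 ± 50.4 in wild-type arrays (SD, n = 4, 5 and 4). Homozygous arrays differed from wild type by 0.88 ± 0.27 log2, or 1.83-fold (limma, adjusted p = 0.909), and 2 of 4 lay above all wild-type arrays. The heterozygous against wild type difference was 0.54 ± 0.26 (adjusted p = 0.450), or 0.36 without wild type 4. Homozygous against heterozygous arrays differed by 0.33 ± 0.26 (adjusted p = 1), or by 0.09 without homozygous 4. The dimmer probe set, 1428026_at, had means of 116 ± 31.7, 85.6 ± 17.4 and 76.6 ± 17.2 in homozygous, heterozygous and wild-type arrays, with differences of 0.50 ± 0.17 for homozygous and 0.14 ± 0.16 for heterozygous against wild type (adjusted p = 0.909 and 0.713). Both probe sets lay below the median probe set in mean log2 intensity, at percentiles 47.3 and 34.7, against 80.8 for Slc17a7 and 85.7 for Rprm, so the Tshz2 folds are the more understated ones.

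**Figure D1:**
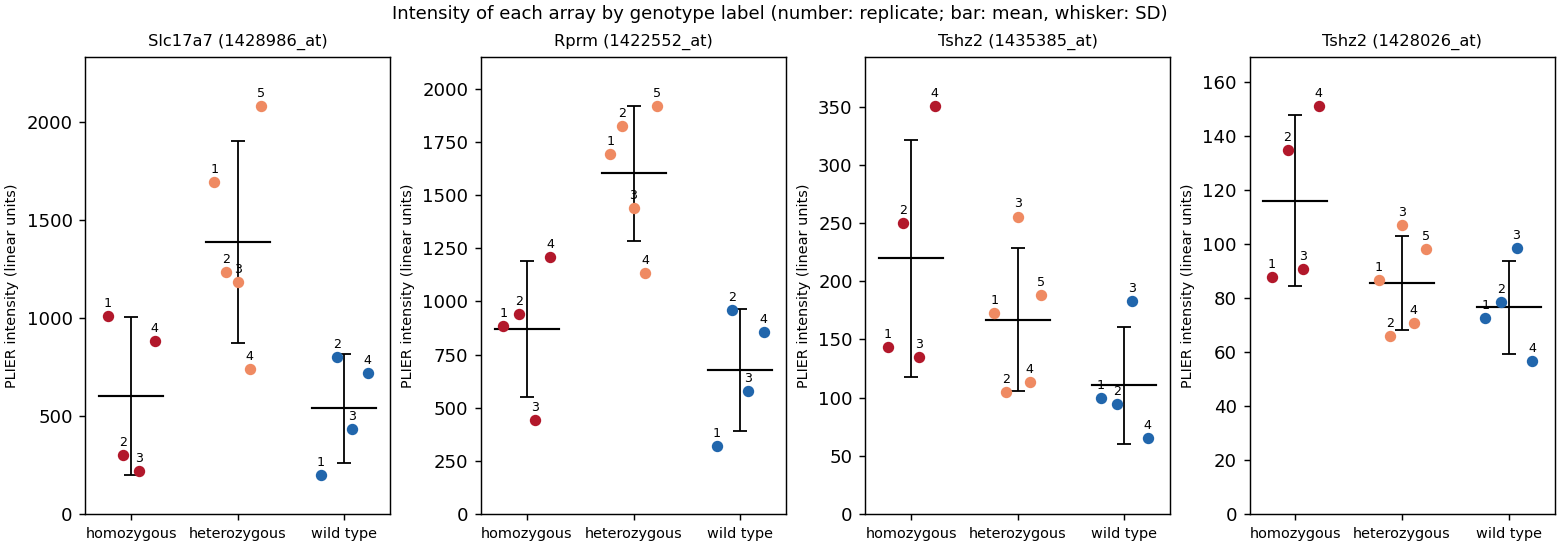
Intensity of Slc17a7, Rprm and the 2 Tshz2 probe sets on each of the 13 arrays (y axis, linear PLIER units, each panel with its own scale) for homozygous, heterozygous and wild-type mice (x axis), with replicate numbers at the points, bars at the mean and whiskers of 1 SD. For Rprm all 5 heterozygous points lie above the 4 wild-type points, whereas for Tshz2 the 3 groups overlap and the highest point is homozygous 4.

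At the adjusted threshold, 0 of the 4 probe sets passed with limma in any of the 3 comparisons, where 4 probe sets passed in homozygous against wild type (0.00887% of all tested), 1 in heterozygous against wild type (0.00222%) and 3 in homozygous against heterozygous arrays (0.00665%). At an unadjusted p under 0.05 by limma, 2 of the 4, both Tshz2 probe sets, were higher in homozygous against wild type. So were 20.8% of the deposited table and 2.81% of all probe sets. None was lower, against 0.208% of all. In heterozygous against wild type 3 of the 4 were higher (Slc17a7, Rprm and Tshz2 1435385_at). So were 83.7% of the deposited table and 10.8% of all, and 0 of the 4 were lower, against 0.153% of all. The 4 come from the deposited table, which was chosen on these mice, so its shares are the closer comparison. The 3 of 4 do not exceed its 83.7%. In homozygous against heterozygous arrays 2 were lower, Slc17a7 and Rprm, as were 14.5% of the deposited table and 2.05% of all. Tshz2 1428026_at was higher there, as were 1.88% of the deposited table and 0.614% of all.

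**Figure D2:**
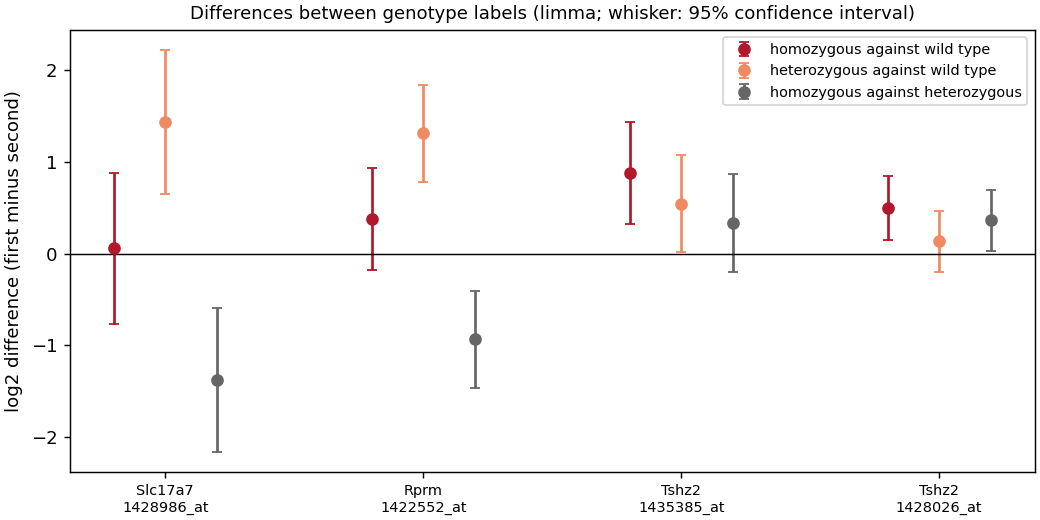
Log2 differences (y axis, first group minus second, log2(intensity + 16)) of the 4 probe sets (x axis) for homozygous against wild type, heterozygous against wild type and homozygous against heterozygous arrays, as points with 95% confidence intervals from limma. Slc17a7 and Rprm are high in heterozygous against wild type (1.43 and 1.31) and negative in homozygous against heterozygous (-1.37 and -0.93), while both Tshz2 probe sets are highest in homozygous against wild type (0.88 and 0.50).

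These 4 probe sets have a name here only because the authors' deposited table lists them, and that table holds probe sets past a raw p of 0.05 and a fold of 1.2 in at least 1 of its comparisons. It lists Slc17a7 and Rprm for heterozygous against wild type, with folds of 2.77 and 2.52 and adjusted p-values of 0.361 each in the authors' deposited table. Tshz2 is listed there for homozygous against wild type, with folds of 1.97 and 1.5 and adjusted p-values of 0.89 in the authors' deposited table. The differences in those contrasts are therefore descriptions of genes picked for them, and any further probe set of the 3 genes was not analysed here.

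The raw p of that table also depends on the spread among mice of 1 genotype label, so the spread below is a description too. After the mean of each genotype was taken away, the SD of Slc17a7 was 0.84 log2, at percentile 99.7 of all 45101 probe sets, whose median was 0.18. Rprm and Tshz2 1435385_at both had 0.54 (percentile 99.2), and Tshz2 1428026_at had 0.29 (percentile 92.8). The share of each probe set's variance that lay within the genotype groups was 53.6% for Slc17a7, 41.3% for Rprm, and 65.1% and 60.7% for the Tshz2 probe sets 1435385_at and 1428026_at. So for Slc17a7 and both Tshz2 probe sets more of the variance lay among mice of 1 label than between the labels. With 13 arrays in 3 groups, most of it would on average lie within labels even without a label effect. These shares alone therefore do not size a label effect.

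Slc17a7 and Rprm moved together from mouse to mouse. Across the 13 arrays Pearson's r and Spearman's rho were both 0.91, and r was 0.80 without wild type 1 and homozygous 3, the arrays farthest from the Slc17a7 median. These values carry no test, since both genes were listed for their heterozygous excess, which adds to them. With each value taken relative to its genotype mean, r was 0.85 (permutation p = 0.00136, adjusted 0.00408 over 3 pairs) and rho was 0.81 (p = 0.00209, adjusted 0.00627), with 0.865 when wild type 1 and homozygous 1 were left out. Against their own group means, both genes were low in homozygous 3, heterozygous 4 and wild type 1 (-1.13, -0.81 and -1.19 log2 for Slc17a7, and -0.87, -0.47 and -0.93 log2 for Rprm). Both were high in homozygous 4, heterozygous 5 and wild type 2 (0.82, 0.66 and 0.74 for Slc17a7, and 0.56, 0.28 and 0.60 for Rprm). The arrays that differed most in the 2 genes were homozygous 1 and 2. Homozygous 1 stood at 1.01 log2 for Slc17a7 and 0.11 for Rprm, and homozygous 2 at -0.69 and 0.20.

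The correlations of Tshz2 with the other pair were low, and none passed within labels. Its brighter probe set had r = 0.15 with Slc17a7 and 0.29 with Rprm over the 13 arrays, and 0.13 and 0.21 within genotype labels (permutation p = 0.706 and 0.554, adjusted 0.706 for both). Spearman's rho was 0.29 and 0.37 over all arrays, and 0.08 and 0.06 within labels (permutation p = 0.842 and 0.867, adjusted 0.867 for both). Over all arrays except wild type 1 and homozygous 3, r with Slc17a7 was -0.04 and r with Rprm was 0.14. Within labels, r with Slc17a7 was 0.28 without wild type 1 and homozygous 1. There r with Rprm was -0.0034 without wild type 1 and homozygous 3. The 2 Tshz2 probe sets had r = 0.95 with each other and 0.90 without homozygous 4 and wild type 4. Those 2 values carry no test either, since both probe sets were listed for their homozygous excess, which adds to them. The 3 markers thus did not give 1 common order of the mice: Slc17a7 and Rprm ranked them much alike, and Tshz2 ranked them otherwise.

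**Figure D3:**
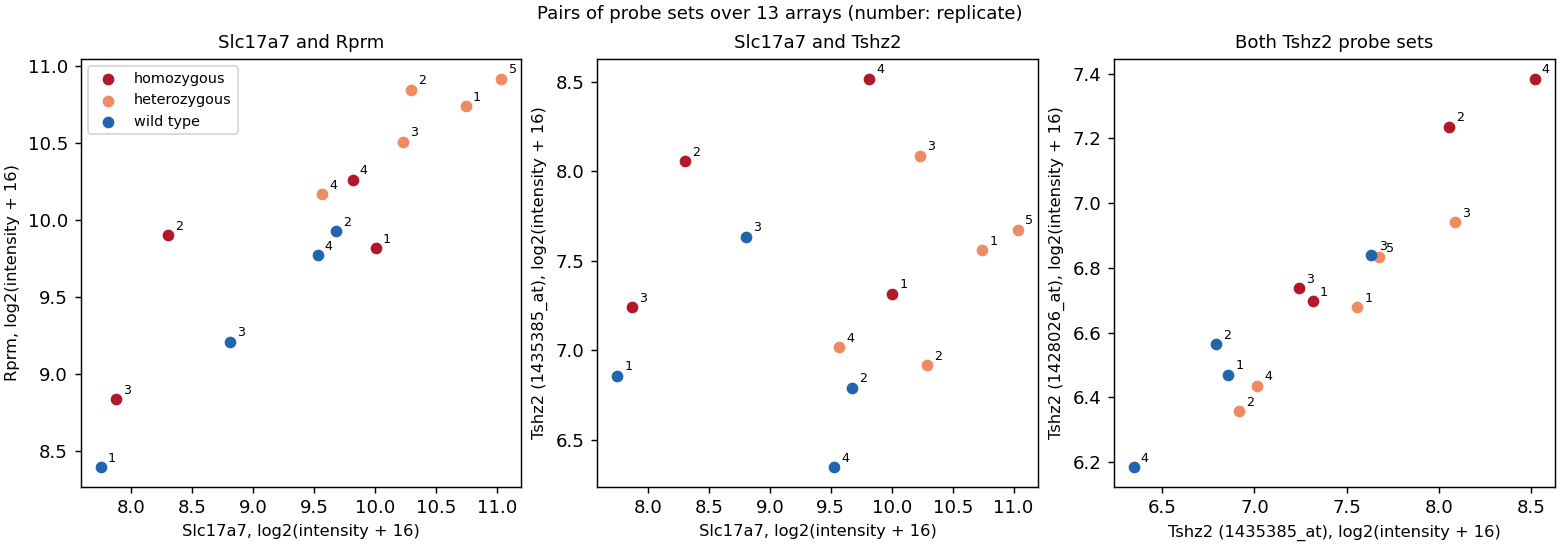
Log2(intensity + 16) of Slc17a7 against Rprm, of Slc17a7 against Tshz2 (1435385_at) and of the 2 Tshz2 probe sets against each other, 1 point per array with its replicate number, coloured as homozygous, heterozygous or wild type. Points run along a line for Slc17a7 with Rprm (r = 0.91) and for the Tshz2 probe sets (r = 0.95), and are scattered for Slc17a7 with Tshz2 (r = 0.15).

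Overall brightness of an array moved with the genes to differing degrees. The array median ran between 143 in homozygous 1 and 201 in homozygous 2. Its correlation with Slc17a7 was -0.02 (permutation p = 0.951) and with Rprm 0.27 (permutation p = 0.376). With Tshz2 it was 0.55 (permutation p = 0.0526, adjusted 0.105 over 4 relations, the pair of Tshz2 probe sets included). There rho was 0.45, and r was 0.55 without homozygous 4 and wild type 4. These p-values leave in the label differences for which the genes were listed. The part of array brightness in the Tshz2 values was not tested. After centring each array on its median, r was 0.92 for Slc17a7 with Rprm and 0.12 for Slc17a7 with Tshz2.

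In the median, other named markers of cortical excitatory neurons were closer to Slc17a7 and Rprm than to Tshz2 from mouse to mouse. Of 20 such markers, 15 have a row in the deposited table, Slc17a7 and 14 others. All 14 others were higher in heterozygous than in wild-type arrays at an unadjusted p under 0.05, none at the adjusted threshold (limma, lowest adjusted p = 0.287). That holds for 83.7% of the whole deposited table and for 10.8% of all probe sets, so the count lies near the share of a table that was chosen on these mice. Their median difference was 0.69 log2, compared with 0.31 for every probe set of the deposited table and 0.12 for all tested, and it was 0.57 after median centring. All 14 were listed for heterozygous against wild type, whereas 549 probe sets of that table were listed only for homozygous against wild type. In homozygous against heterozygous arrays 0 of 14 were higher, as were 16.1% of the deposited table, with medians of -0.57 and -0.14. In homozygous against wild type the median was 0.12 with 10 higher, or 0.03 with 9 higher after median centring. No listed member was at 0 on any array.

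Sv2b, a synaptic vesicle glycoprotein, had 2539 ± 365 in homozygous, 3859 ± 833 in heterozygous and 2491 ± 348 in wild-type arrays, and a heterozygous against wild type difference of 0.61 log2 (limma, adjusted p = 0.287). Slc30a3, the transporter that fills cortical vesicles with zinc, differed by 0.89 log2, and Lhx2, a LIM homeobox factor of cortical progenitors, by 0.52 (limma, adjusted p = 0.287 for both). Within genotype labels, the correlation with Slc17a7 over the 13 arrays was 0.87 for Sv2b, 0.75 for Slc30a3 and -0.03 for Lhx2. Over the other 14 listed markers the median of this correlation was 0.75 with Slc17a7, 0.68 with Rprm and 0.21 with Tshz2, and 9 of the 14 were over 0.7 with Slc17a7. Cpne6 and Emx2, named after their values were seen, went the other way: 0.71 and 0.13 with Tshz2, 0.22 and -0.31 with Slc17a7. With Rprm they had 0.14 and -0.22. Lhx2 also had more with Tshz2 (0.24) than with Rprm (-0.04). Over the 2091 named probe sets above the median brightness the median correlation was 0.16 with Slc17a7, 0.32 with Rprm and 0.63 with Tshz2, and over all 22550 probe sets of that brightness it was -0.23, 0.03 and 0.52. The points share arrays, so these correlations describe the 13 libraries.

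The summed intensity of those other 14 cortical markers was 21639, 17298, 15592 and 21751 in homozygous arrays 1 to 4. It was 29705, 24485, 24536, 19560 and 40061 in heterozygous arrays 1 to 5, and 13285, 20910, 17642 and 18302 in wild-type arrays 1 to 4. The highest sum was in heterozygous 5 and the lowest in wild type 1, as for Slc17a7 and Rprm. Being sums of linear intensities, they weigh the brightest of the 14 markers most. All 14 were listed for heterozygous against wild type on these same mice, as were Slc17a7 and Rprm. The order of the groups in these sums is therefore a description of genes picked for it. Heterozygous 4 alone among the heterozygous arrays overlapped the other groups. The share of cortical tissue in each dissection was not measured, and its part in the genotype differences was not tested.

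Markers of single cortical layers had a wide range of correlations with the 3 genes. Of 20 markers of layers 6 and 6b, 13 were listed, Rprm and 12 others. Of the 12, 10 were higher in heterozygous than in wild-type arrays at an unadjusted p under 0.05 (83.7% of the deposited table and 10.8% of all probe sets were), with no pass at the adjusted threshold. Their median was 0.43 log2, or 0.31 after median centring. Ptpru, a receptor tyrosine phosphatase, had a correlation of 0.86 with Slc17a7 within genotype labels, 0.82 with Rprm and 0.01 with Tshz2. Its intensity was 194 ± 43.2 in homozygous, 316 ± 85.2 in heterozygous and 193 ± 54.3 in wild-type arrays, a heterozygous against wild type difference of 0.66 log2 (limma, adjusted p = 0.306). Crh, the stress peptide corticotropin-releasing hormone, went with Tshz2 (0.83) more than with Slc17a7 (0.415) or Rprm (0.53). It had 284 ± 140 in homozygous, 282 ± 149 in heterozygous and 115 ± 51.7 in wild-type arrays.

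Over the 12 listed layer 6 and 6b markers other than Rprm, the median correlation was 0.42 with Slc17a7, 0.53 with Rprm and -0.22 with Tshz2. Within that list the correlation with Tshz2 ran both ways. Ctgf, a matricellular growth factor, had -0.66 with it and Cplx3, a complexin of synaptic release, had -0.62, while Moxd1, a monooxygenase relative, had 0.56 and Nxph4, a neurexophilin, had 0.14. These 4 were named after their values were seen.

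Markers of layer 5, the layer of Tshz2, were listed for 5 of 18 genes. Qrfpr, a neuropeptide receptor, differed by 1.26 log2 between heterozygous and wild-type arrays at a very low intensity (23.0 ± 17.9 in homozygous, 59.2 ± 38.1 in heterozygous and 12.5 ± 3.0 in wild-type arrays). Tox, an HMG-box factor, differed by 0.40 and Bcl6, a transcriptional repressor, by 0.35 (limma, adjusted p = 0.385 and 0.417, and 0.287 for Qrfpr). The 4 listed layer 5 markers other than Tshz2 had a median correlation of 0.64 with Tshz2 and of 0.33 with Slc17a7. One of the 4, Rbp4, a retinol carrier named after its values were seen, had -0.30 with Tshz2 and -0.45 with Slc17a7. Upper-layer markers, 5 of 19 listed, had a median of 0.65 with Tshz2, 0.34 with Slc17a7 and 0.43 with Rprm. Their median difference was 0.555 log2 in homozygous and 0.37 in heterozygous against wild type. In homozygous against heterozygous arrays it was 0.05, and none passed at the adjusted threshold. The deposited table had medians of 0.19, 0.31 and -0.14 in these 3 comparisons. Of the upper-layer markers, Rasgrf2, a Ras exchange factor, had 0.70 with Tshz2, Nectin3, a cell adhesion molecule, had 0.65 and Stard8, a GTPase-activating protein, had 0.36. With Slc17a7 these had 0.34, 0.39 and 0.54. The other listed upper-layer markers, Otof and Wfs1, were named after their values were seen. They had 0.62 and 0.79 with Tshz2, and -0.09 and -0.30 with Slc17a7. The median correlations of both lists with Tshz2 lie near the 0.63 of the named bright probe sets. Those with Slc17a7 lie above their 0.16, while Rbp4, Otof and Wfs1 lie below it.

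**Figure D4:**
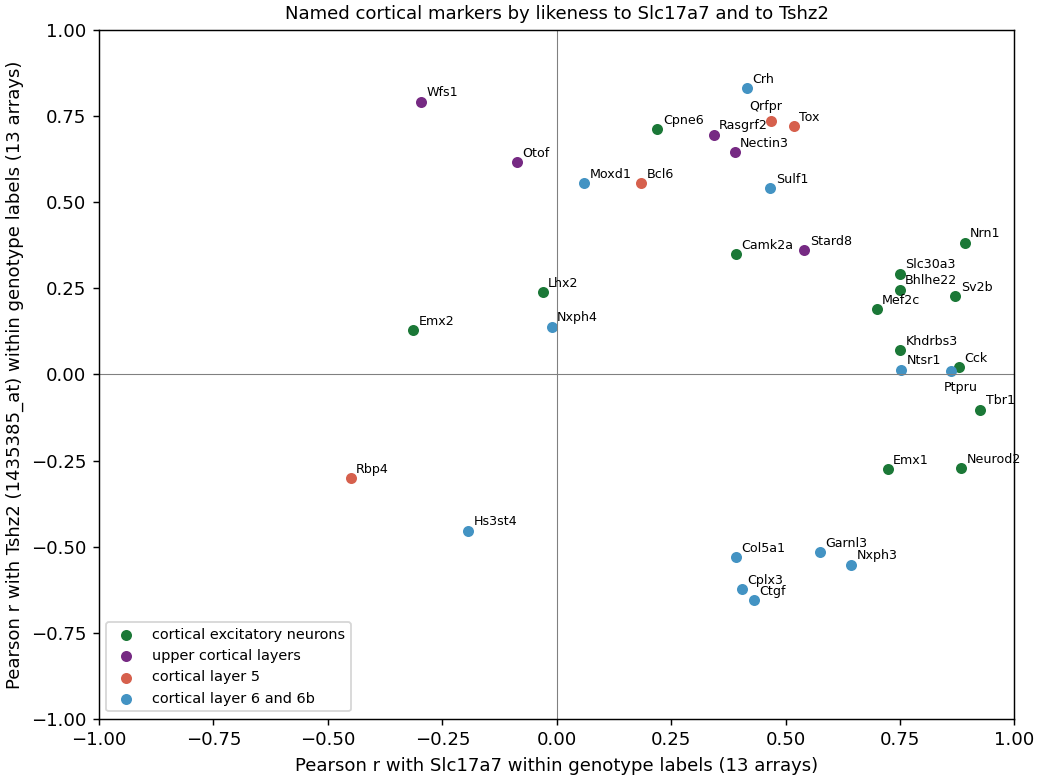
Each point is 1 named cortical marker, placed by its Pearson correlation with Slc17a7 (x axis) and with Tshz2 1435385_at (y axis) over the 13 arrays after the genotype means were taken away, and coloured by marker list. Most general excitatory markers lie to the right (median 0.75 with Slc17a7) at low values with Tshz2 (median 0.21), and layer 6 and 6b markers reach down to -0.66 for Ctgf.

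Markers of other regions and cell types were few in the deposited table, so the lists say little about them. Nr4a2, an orphan nuclear receptor made in the claustrum and in layer 6b, had a correlation of 0.94 with Slc17a7 within genotype labels, and 357 ± 279 in homozygous, 933 ± 559 in heterozygous and 736 ± 366 in wild-type arrays. Its companion on the claustrum list, Nnat, had -0.20 with Slc17a7 and 0.76 with Tshz2. Of 34 markers of medium spiny neurons only Arpp21 and Eya1 were listed, at heterozygous against wild type differences of 0.41 and 0.31 log2 (limma, adjusted p = 0.289 and 0.412), and Drd1, Drd2, Ppp1r1b and Adora2a have no named row and were not analysed here. Their summed intensity ran between 2289 and 2785 in homozygous, 2582 and 3528 in heterozygous and 2173 and 2646 in wild-type arrays.

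Among interneurons, Vip, the peptide of a cortical interneuron class, tracked Slc17a7 (0.855 within genotype labels) and had 302 ± 154 in homozygous, 590 ± 371 in heterozygous and 214 ± 126 in wild-type arrays. Sst and Npy, peptides that striatal and cortical interneurons both make, had 0.20 and 0.21 with Slc17a7. Their heterozygous against wild type differences were 0.38 and 0.31 log2, against 1.38 for Vip (limma, adjusted p = 0.311, 0.353 and 0.287). No marker of thalamus, oligodendrocytes or choroid plexus was listed. Septal and pallidal markers had 5 of 12 listed, with a median correlation of -0.01 with Slc17a7 and 0.49 with Tshz2. Dgkg and Trpc4 had 0.34 log2 each and Magel2 0.11 in heterozygous against wild type. Baiap3, named after its values were seen, had 0.91 with Tshz2, the highest of any listed marker. Its intensity was 457 ± 149 in homozygous, 329 ± 125 in heterozygous and 294 ± 101 in wild-type arrays. It was listed for homozygous against wild type, as Tshz2 was. The 4 of 11 listed for hippocampus and amygdala had a median of -0.22 with Slc17a7, with Rspo2 at 0.66, Etv5 at -0.15 and Dsp at -0.29.

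Non-neuronal markers were listed in 6 cases. Of astrocyte markers, Aldoc had a correlation of 0.41 with Slc17a7 and 0.79 with Tshz2, and Gfap had -0.21 and -0.14. The microglial integrin Itgam had -0.32 with Slc17a7. The smooth muscle gene Tagln had -0.77 with Slc17a7 and -0.0019 with Tshz2, and its intensity was 474 ± 175 in homozygous, 243 ± 42.1 in heterozygous and 208 ± 39.8 in wild-type arrays (homozygous against wild type 1.08 log2, limma adjusted p = 0.0943). The meningeal genes Aldh1a2 and Slc47a1 had 0.11 and -0.21.

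In the pathway of Slc17a7, the release and recycling of vesicular glutamate, 17 of 34 genes were listed. Apart from Slc17a7, all 16 had a higher mean in heterozygous than in wild-type arrays, as 98.1% of the deposited table had, with an unadjusted p under 0.05 for 15 and no pass at the adjusted threshold. That is again near the 83.7% of the deposited table, against 10.8% of all probe sets. Their median was 0.385 log2, or 0.27 with 15 higher after median centring. Rims1, a scaffold of the active zone, had 1777 ± 225 in homozygous, 2292 ± 395 in heterozygous and 1627 ± 256 in wild-type arrays, a heterozygous against wild type difference of 0.49 log2 (limma, adjusted p = 0.289). Stx1a, a syntaxin of the vesicle fusion complex, was named after its values were seen and differed by 0.97 log2, the nearest in size to Slc17a7, with a correlation of 0.87 with it. Other parts of the same machinery did not follow Slc17a7: Syt1, the calcium sensor of release, had 0.09, and Cplx2, a complexin, had -0.17, both also named after their values were seen. The median correlation over the 16 was 0.49 with Slc17a7, 0.63 with Rprm and 0.64 with Tshz2.

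Among the teashirt factors and their partners, 3 of 13 were listed. Tshz3, the paralogue of Tshz2 that marks cortical projection neurons, had 169 ± 34.6 in homozygous, 289 ± 99.7 in heterozygous and 162 ± 36.2 in wild-type arrays. Its correlation within genotype labels was 0.83 with Slc17a7 and 0.21 with Tshz2. Sox5, a factor of deep-layer neurons, had 0.91 with Slc17a7, 0.895 with Rprm and 0.04 with Tshz2, and differed by 0.50 log2 between heterozygous and wild-type arrays (limma, adjusted p = 0.391).

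Rprm was set beside p53 targets of cell cycle arrest, of which 6 of 17 were listed, Rprm among them. Cdkn1a, the cyclin-dependent kinase inhibitor p21, had 339 ± 21.6 in homozygous, 327 ± 69.0 in heterozygous and 210 ± 21.7 in wild-type arrays, with limma adjusted p = 0.421 and 0.287 for homozygous and heterozygous against wild type. Its correlation with Rprm within genotype labels was 0.26. Btg2, an antiproliferative gene, differed by 0.58 log2 in heterozygous and 0.56 in homozygous arrays against wild type, and had 0.10 with Rprm. Rprml, the paralogue of Rprm, was named after its values were seen and had -0.25 with it. The median over the 5 other listed genes was 0.10, beside 0.32 for the named bright probe sets. All 5 had higher means in both knockout genotypes than in wild type, none at the adjusted threshold, and their means were also higher after median centring. So had 94.9% of the deposited table in homozygous and 98.1% in heterozygous against wild-type arrays.

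Named genes whose intensity was most like that of each member were taken as the 5 with the highest correlation within genotype labels over the 13 arrays, among 2090 or 2091 named probe sets above the median brightness. For Slc17a7 these were Mapk11, a stress-activated kinase (0.95), Rtn4rl2, a Nogo receptor homologue (0.95), Nr4a2 (0.94), Mfsd4, now Mfsd4a, a membrane transporter (0.94), and Fam81a (0.94). Rtn4rl2 ran between 81.5 and 1036 in intensity over the 13 arrays and differed by 1.17 log2 between heterozygous and wild-type arrays (limma, adjusted p = 0.314). Nr4a2 differed by 0.27 log2 there and by -1.21 log2 in homozygous against wild-type arrays (limma, adjusted p = 0.829 and 0.909).

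For Rprm the 5 were Serpini1, the neuronal protease inhibitor neuroserpin (0.94), Efr3a, a plasma membrane scaffold (0.92), Camk2g, a calcium/calmodulin-dependent kinase (0.915), Vsnl1, a calcium sensor of neurons (0.914), and Ube2ql1 (0.90). Serpini1 ran between 1274 and 4112 and differed by 0.86 log2 between heterozygous and wild-type arrays (limma, adjusted p = 0.241). For Tshz2 they were Prkar2a, a regulatory subunit of protein kinase A (0.97), Eps8, an actin regulator (0.965), Cacng5, a TARP subunit of AMPA receptors (0.96), Igsf3 (0.95) and Myeov2, now Cops9 (0.95). Cacng5 ran between 176 and 656 and differed by 0.72 log2 in homozygous and 0.50 in heterozygous against wild type (limma, adjusted p = 0.909 and 0.468). No gene stood on more than 1 of the 3 lists of 5.

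Slc17a7 lies on chromosome 7, as does Ptpn5, with 76 protein-coding genes between them in the RefSeq order of GRCm38.p6, while Tshz2 and Rprm lie on chromosome 2. The stretch between Slc17a7 and Ptpn5 holds 13 named probe sets. Named after their values were seen, Dkkl1 differed by 1.17 log2 between heterozygous and wild-type arrays and had a correlation of 0.88 with Slc17a7, and Sult2b1, a sulfotransferase, fell by 0.91 log2 in homozygous against heterozygous arrays (limma, adjusted p = 0.0419), with 0.41. The other 11 had correlations with Slc17a7 between -0.62 and 0.47 and did not pass in any of the 3 comparisons. The labels do not say how much DNA around Ptpn5 differs between the genotypes, and its part in these values was not tested.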

How the data were processed

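For each mouse, biotinylated cRNA was made from Trizol-extracted total RNA and put on 1 Affymetrix array, per the labels' protocols. The submitters' processing notes name PLIER, without a version. Array type and genome build: not given in the sources used here. Linear intensities of 45101 probe sets on 13 arrays make up the deposited value table. A second deposited table holds the same intensities, rounded, for 4423 probe sets, with the authors' signed folds and p-values, per the file headers. That table alone names genes: 3581 probe sets have 1 symbol, 49 several and 793 none, and 3543 were matched to RefSeq by Entrez ID. All other probe sets are unnamed here.

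Groups follow the sample records. Under these records the authors' folds equal the differences in mean log2 intensity within 0.05 log2 for 1027 of 1027 homozygous and 3872 of 3874 heterozygous entries. Limma 3.58.1 (R 4.3.3) was fitted to log2(value + 16) of all probe sets with genotype as the only term (eBayes with an intensity trend), two-sided, and was tested on simulated data. Correlations used 100000 permutations, within genotype groups for values relative to genotype means. Same-numbered arrays of different groups had correlations of their deviations between -0.447 and 0.186, so the numbers were not taken to pair mice. No scan dates or other batches are given in the files, so none were tested. Alternatives were other offsets, normalizations, samples, variance models, array weights, a replicate block and leaving out each array.

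The members and the gene lists were chosen with earlier results of these data known. Genes are named by rule: the members, Ptpn5, the 5 genes most like each member, the 3 genes of each list with the smallest p in heterozygous against wild type, and defining markers of medium spiny neurons. Others are said to be named after their values were seen. Where a gene has several probe sets, the brightest stands for it, except that both are given for Tshz2 and Ptpn5.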

Additional observations from a re-analysis of the deposited data

How the results depend on the processing

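Across the alternatives the differences of Tshz2 kept their direction in all 3 comparisons for both probe sets, and none passed. Left out in turn, single arrays moved 1435385_at between 0.087 and 0.51 in homozygous against heterozygous (lowest without homozygous 4), and 1428026_at between 0.025 and 0.24 in heterozygous against wild type (lowest without wild type 4, 0.021 after median centring). Both lie below the median probe set, so they have no value with dim probe sets left out. The heterozygous excess of Slc17a7 over wild type lay between 1.04 and 1.68 log2 when each array was left out in turn and between 1.24 and 1.47 otherwise. That of Rprm lay between 1.0 and 1.51 with an array left out.

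The homozygous against wild type difference of Slc17a7 has no settled sign: it was -0.060 after quantile normalization, -0.033 after median centring, and between -0.34 and 0.43 with an array left out (negative without wild type 1, homozygous 1 or homozygous 4). With array weights, which ran between 0.209 for homozygous 1 and 12.05 for homozygous 3, it was -0.99 (adjusted p = 0.0368) and that of Rprm was -0.41, which lay between 0.067 and 0.67 with an array left out. The same weights let the homozygous against heterozygous differences pass, at -2.26 for Slc17a7 (adjusted p = 0.000469) and -1.73 for Rprm (adjusted p = 0.000449). That fit leans on homozygous 3, the lowest homozygous array for both genes. With it 8390 probe sets passed in homozygous against wild type and 5698 in homozygous against heterozygous arrays.

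With the replicate block over arrays 1 to 4, the heterozygous against wild type difference of Rprm was 1.24 and passed (adjusted p = 0.00913). It also passed without heterozygous 4 (1.43) and without homozygous 3 (1.31), where 213 and 5 probe sets passed. The range of its adjusted p was 0.0281 to 0.628 with an array left out. For all other differences of the members the block changed no call.

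The probe sets past the threshold in homozygous against wild type numbered 4, or 2 with dim probe sets left out, 17 with the block, 18 with only the groups compared, 8390 with array weights, and 3 to 12 with an array left out. In heterozygous against wild type there was 1, or 6 with the block, 4 with array weights, and 1 to 213 with an array left out (213 without heterozygous 4). In homozygous against heterozygous there were 3, or 12 with the block, 12 with only these groups, 5698 with array weights, and 0 to 7 with an array left out. The correlation of Slc17a7 with Tshz2 turned to -0.044 without wild type 1 and homozygous 3. The cause of these changes was not tested. Arrays have no read depth, and signal over background was not among the values used.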
